A study of Homo sapiens with 21 samples.

Results

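The 10 human Toll-like receptor genes, TLR1 to TLR10, were followed through 21 RNA sequencing libraries of OCI-AML5, an acute myeloid leukemia cell line. The members were taken by name: gene identifiers were stripped of their version and matched to symbols, and all 10 receptors were found among 58174 gene identifiers. The libraries form 7 groups of 3. Cells with no guide RNA named in their labels, called unedited here, were kept in DMSO, the solvent control, for 72 h, or in UM171, a small molecule known for expanding human hematopoietic stem cells in culture, at 500 nM for 6, 24, 48 or 72 h. Cells carrying sgEPCR, a guide RNA against the UM171-responsive receptor gene PROCR (EPCR), were kept in DMSO for 24 h or in UM171 at 500 nM for 24 h. The labels call the sgEPCR cells an AML5 clone that is EPCR null and give the genotype as EPCR knockdown, whereas the study's text speaks of several clones, so which clone each library came from is not known here. The study's legends name the cells compared with sgEPCR as sgAAVS1, a control guide, so the cells called unedited may carry that guide in each comparison with sgEPCR. The labels and the study's legends also differ on the UM171 dose. No label states that the 3 libraries of a group came from separate cultures, so p-values measure the spread between these libraries, which may be technical.

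Toll-like receptors are membrane proteins that recognise microbial molecules through a leucine-rich repeat ectodomain and signal through a cytoplasmic TIR domain. TLR1, TLR2, TLR4, TLR5, TLR6 and TLR10 act mostly at the cell surface, where TLR2 pairs with TLR1 or TLR6 to bind bacterial lipopeptides, TLR4 binds lipopolysaccharide with its co-receptor MD-2 (LY96), and TLR5 binds flagellin. TLR3, TLR7, TLR8 and TLR9 sense nucleic acids inside endosomes: TLR3 double-stranded RNA, TLR7 and TLR8 single-stranded RNA, and TLR9 unmethylated CpG DNA. All except TLR3 signal through the adaptor MYD88. TLR3 uses TICAM1, which TLR4 can also use. In monocytes and their precursors these receptors are the main triggers of NF-kB and interferon responses to microbes.

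The receptors lie on 5 chromosomes in GRCh38, the build of the deposited values. TLR10 (chr4:38772238-38782990), TLR1 (chr4:38790677-38856817) and TLR6 (chr4:38822897-38856817) form a cluster on the minus strand of chromosome 4, in which the annotated span of TLR6 lies inside that of TLR1 and both end at the same upstream base. TLR2 (chr4:153684070-153706260) and TLR3 (chr4:186068911-186088073) are on the plus strand of that chromosome. TLR4 is on the plus strand at chr9:117704175-117724735 and TLR5 on the minus strand at chr1:223109404-223143248. TLR7 (chrX:12867072-12890361) and TLR8 (chrX:12906620-12923169) are neighbours on the plus strand of chromosome X. TLR9 (chr3:52221080-52225645, minus strand) lies under a readthrough gene, ENSG00000173366 (chr3:52221081-52231190), on the same strand.

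RefSeq promoter windows (GRCh38.p14, 250 bases before to 50 after the start) were held for 7 of the 10 receptors. Those of TLR3, the receptor with the largest change at 6 h, of TLR6 and TLR5, which were higher than in DMSO at all 4 times in UM171, and of TLR4, the most abundant, are printed 5′ to 3′ on the strand of the gene. Capitals mark matches on either strand to GAGGAA, the core bound by ETS factors such as PU.1, to the core of the interferon response element (GAAA, 2 free bases, GAAA), to TGANTCA, the AP-1 element, or to an NF-kB element (GGGA, 2 free bases, TTCC).
TLR3 (chr4:186068906-186069205, plus strand): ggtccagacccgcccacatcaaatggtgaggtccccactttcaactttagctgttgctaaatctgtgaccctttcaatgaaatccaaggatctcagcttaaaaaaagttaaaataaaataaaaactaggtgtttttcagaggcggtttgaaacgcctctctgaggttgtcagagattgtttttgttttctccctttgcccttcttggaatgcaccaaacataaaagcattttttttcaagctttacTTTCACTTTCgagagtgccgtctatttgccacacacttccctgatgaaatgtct
TLR6 (chr4:38856768-38857067, minus strand): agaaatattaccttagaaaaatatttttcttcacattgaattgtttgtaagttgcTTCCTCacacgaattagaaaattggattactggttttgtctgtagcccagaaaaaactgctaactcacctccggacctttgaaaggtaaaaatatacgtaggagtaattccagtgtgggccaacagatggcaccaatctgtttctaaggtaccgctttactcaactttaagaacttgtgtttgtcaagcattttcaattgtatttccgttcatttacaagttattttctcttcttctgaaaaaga
TLR5 (chr1:223143199-223143498, minus strand): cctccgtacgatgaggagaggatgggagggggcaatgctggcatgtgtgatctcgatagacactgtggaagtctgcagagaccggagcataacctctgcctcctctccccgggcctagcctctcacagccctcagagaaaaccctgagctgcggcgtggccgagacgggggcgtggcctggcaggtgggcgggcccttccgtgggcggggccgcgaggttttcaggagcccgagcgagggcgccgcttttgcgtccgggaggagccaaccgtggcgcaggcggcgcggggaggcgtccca
TLR4 (chr9:117704153-117704452, plus strand): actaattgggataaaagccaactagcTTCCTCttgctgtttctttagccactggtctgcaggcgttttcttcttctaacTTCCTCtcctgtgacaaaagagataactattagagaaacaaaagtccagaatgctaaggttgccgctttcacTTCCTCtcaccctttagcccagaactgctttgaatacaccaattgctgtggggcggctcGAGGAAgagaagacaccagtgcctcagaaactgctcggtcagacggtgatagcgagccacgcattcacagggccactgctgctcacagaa
The TLR3 window held 1 interferon response element core, from -4 to 5 around the start base counted as 0, and none of the other 6 windows held one. Among 35116 RefSeq promoter windows of this length, 3.57% held that core. The TLR4 window held 4 GAGGAA cores and the TLR6 window 1, where 27.9% of all windows held at least 1. The TLR5 window held none of the 4 motifs. The AP-1 element, held by 7.71% of all windows, was found in that of TLR9, which also held 2 GAGGAA cores, and the NF-kB element, held by 1.61%, in none of the 7. These are letter matches only, and overlapping matches were counted separately.

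Libraries held 24.3 to 51.5 M expected counts, with a median of 33.9 M. A count of 3, taken as the smallest signal, corresponds to 0.0582 to 0.124 CPM, counts scaled to the library total, and covers counting error only. Mitochondrial genes took 7.73 to 13.5% of the counts in 19 libraries, but 35.9% in replicate 1 of sgEPCR DMSO and 32.2% in replicate 2 of sgEPCR UM171, so the sgEPCR tests were repeated without these 2. All 7 markers fixed for a myeloid leukemia line were over 3 counts in at least 1 DMSO library, although KIT had only 3 to 8. The summed level of these 7 ranged from 688 to 716 TPM in DMSO and from 434 to 451 TPM at 72 h. The summed level of the 9 monocyte and macrophage markers ranged from 864 to 989 TPM in DMSO and from 2114 to 2400 TPM at 72 h. Sums of 4 B cell markers (9.48 to 10.4 TPM in DMSO, 20.9 to 24.1 TPM at 72 h) and 4 T cell markers (0.14 to 0.80 and 14.7 to 18.6 TPM) were also higher at 72 h. Of the plasmacytoid dendritic cell markers, which bear on TLR7 and TLR9, the defining genes CLEC4C and LILRA4 had at most 1 count in any library, and the summed level of the list of 6 was 110 to 121 TPM in DMSO, 83.3 to 90.0 TPM at 24 h and 294 to 303 TPM at 72 h. Of that list, GZMB went from 0.050 ± 0.050 to 167 ± 7.2 TPM and IL3RA from 27.8 ± 1.2 to 60.9 ± 2.1 TPM between DMSO and 72 h, while IRF8 went from 84.8 ± 5.2 to 54.2 ± 4.0 TPM (SD, n = 3). The list also holds TCF4, which is part of these sums but whose own level is not given here. In bulk RNA, fewer cells of a type and less RNA per cell cannot be told apart, and the part of these markers in the receptor results was not tested. PROCR, the gene targeted by sgEPCR, averaged 3.68 ± 0.53 TPM in DMSO and 48.5 ± 0.012 TPM at 24 h of UM171 in unedited cells, and 3.59 ± 1.2 and 7.19 ± 2.6 TPM in the corresponding sgEPCR groups (SD, n = 3).

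TLR4 carried most of the receptor transcripts. In TPM, which are corrected for transcript length and so allow genes to be compared, the 10 receptors summed to 55.9 ± 3.3 TPM in DMSO, of which TLR4 made up 86.0% ± 0.4 (SD, n = 3). TLR6 came next at 5.08 ± 0.27 TPM. TLR1 and TLR2 followed at 1.18 ± 0.45 and 1.01 ± 0.03 TPM and overlapped each other between libraries. TLR5, TLR9, TLR10 and TLR3 lay between 0.10 and 0.207 TPM, and each overlapped its neighbour in this order. TLR7 had 1 count in all DMSO libraries together and TLR8 none. Over the series, 5 receptors (TLR1, TLR2, TLR4, TLR5 and TLR6) were over 3 counts in every library, 4 in some (TLR3, TLR7, TLR9 and TLR10) and 1, TLR8, in none.

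**Figure D1:**
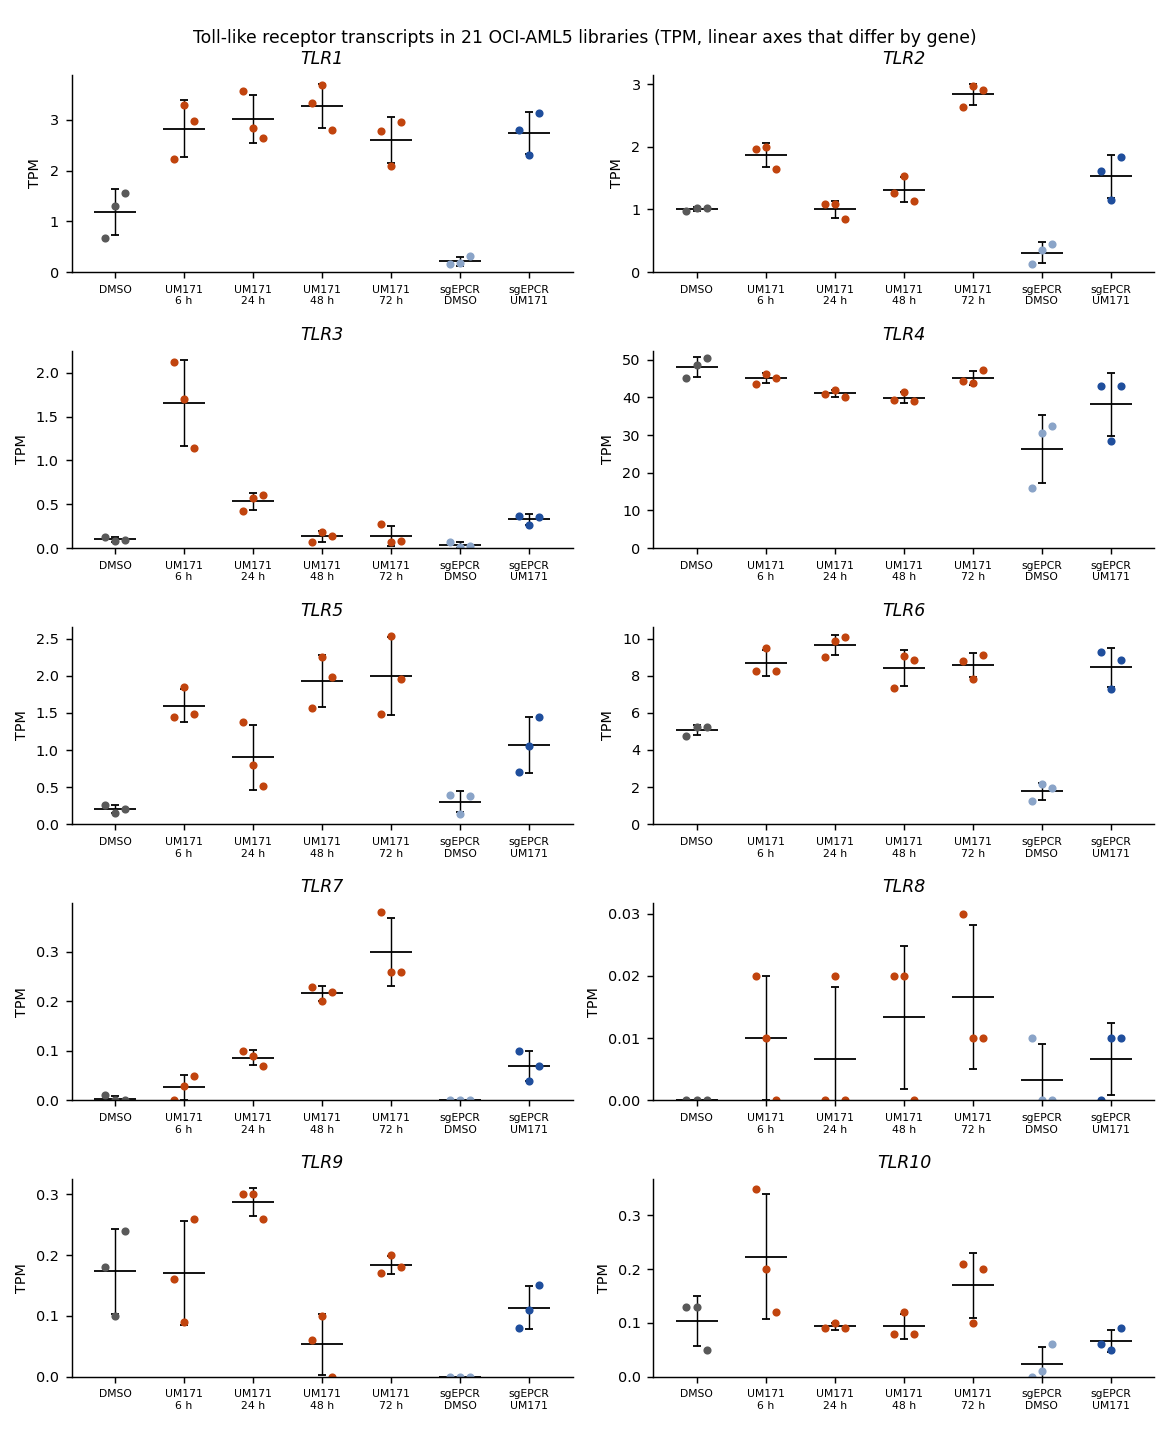
Transcript levels (TPM, vertical axes, linear and different for each gene) of TLR1 to TLR10 in the 7 groups (horizontal axes), with 1 point per library, a bar for the mean and whiskers for the SD (n = 3). TLR4 stays between 39.0 and 50.4 TPM in every unedited library, TLR3 peaks at 6 h, TLR7 is highest at 72 h, and TLR1, TLR2 and TLR6 are lower in sgEPCR DMSO than in any other group.

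The first question was how the receptors moved when UM171 was added to unedited cells. A gene was called when edgeR's quasi-likelihood test gave a Benjamini-Hochberg adjusted p under 0.0001 over all tested genes and the change exceeded 2-fold. Of the 10 receptors, 9 could be tested and 5 were called higher at some time (TLR1, TLR2, TLR3, TLR5 and TLR7), and 0 were called lower. The share of all genes called at any of the 4 times is not given here, so this count of 5 stands without a background. Of all 16575 tested genes, 41, 779, 774 and 962 were called lower at 6, 24, 48 and 72 h. At 6 h 2 of the 9 were called higher, TLR3 and TLR5, where 6.78% of all 16575 tested genes were. At 24 h these were 3 (TLR1, TLR3 and TLR5) against 9.03% of genes, at 48 h 3 (TLR1, TLR5 and TLR7) against 11.7%, and at 72 h 4 (TLR1, TLR2, TLR5 and TLR7) against 15%. Between successive times, 2 were called lower from 6 to 24 h against 6.43% of genes called lower. From 48 to 72 h 1 was called higher against 2.59% called higher. From 24 to 48 h 1 was called higher and 1 lower, where 2.85% of genes were called in either direction. On log2(TPM + 1), a scale that compresses low genes, limma called 0 receptors at 24 h and 1 each at 48 and 72 h. On log2(TPM + 0.1), which compresses them less, limma also called 0 at 24 h. The shares of all genes called by limma are not given here. The DMSO libraries are shared by the 4 comparisons with DMSO and are labelled 72 h, so there is no control of the same time for the shorter exposures.

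TLR3, the endosomal sensor of double-stranded RNA, showed the largest early change. Its expected counts were 6, 6 and 5 in the DMSO libraries, 118, 98 and 66 at 6 h and 30, 42 and 19 at 24 h. The 48 h libraries had 8, 8 and 6, and the 72 h libraries had 9, 7 and 7. All libraries of 6 h lay above those of 24 h, which lay above all others of the unedited cells. The log2 fold change from DMSO was 4.0 ± 0.24 at 6 h (SE, edgeR adjusted p = 4.91e-10) and 2.18 ± 0.27 at 24 h (edgeR adjusted p = 1.43e-06). TLR3 then fell by 1.82 on the log2 scale from 6 to 24 h (edgeR adjusted p = 1.63e-07) and by 1.81 from 24 to 48 h (edgeR adjusted p = 2.57e-05). At 48 and 72 h it did not pass the test against DMSO (adjusted p = 0.469 and 0.460 by edgeR). The fall from 24 to 48 h lost its call when UM171 24 h replicate 2, UM171 48 h replicate 1 or UM171 48 h replicate 2 was left out, with the log2 change between -1.93 and -1.62 over all 6 omissions.

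TLR5, the flagellin receptor, rose at every time but with a dip. The DMSO libraries had 14, 12 and 20 expected counts, those of 6 h 107, 103 and 76, those of 24 h 68, 58 and 34, those of 48 h 132, 100 and 86, and those of 72 h 122, 137 and 168. Every treated library lay above every DMSO library. The log2 fold changes from DMSO were 2.63 ± 0.18, 1.60 ± 0.20, 2.80 ± 0.18 and 3.14 ± 0.17 at 6, 24, 48 and 72 h (SE, edgeR adjusted p at most 1.29e-06). From 6 to 24 h TLR5 fell by 1.03 on the log2 scale (edgeR adjusted p = 1.11e-05), and from 24 to 48 h it rose by 1.21 ± 0.15 (edgeR adjusted p = 5.41e-06). The dip is close to the 2-fold limit, and without UM171 6 h replicate 2 or UM171 24 h replicate 2 it was -0.91 and -0.89 and no longer called. In TPM the 24 h libraries of TLR5 spread from 0.52 to 1.38, while the mean transcript length that RSEM assigned to the gene ran from 1725 to 4013 bases between them.

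TLR1, the partner of TLR2 for triacylated lipopeptides, had 34.8, 55.4 and 68.9 expected counts in DMSO, 104, 110 and 81.9 at 6 h and 198, 199 and 85.4 at 24 h. At 48 h they were 189, 145 and 124, and at 72 h 126, 115 and 149. Treated and DMSO libraries did not overlap. Its log2 fold change from DMSO was 0.90 ± 0.18 at 6 h, which was not called, and 1.38 ± 0.17, 1.55 ± 0.17 and 1.24 ± 0.17 at 24, 48 and 72 h (SE, edgeR adjusted p at most 4.58e-06). TLR6, the partner for diacylated lipopeptides, was at 448, 517 and 579 counts in DMSO and between 655 and 1421 in the 12 UM171 libraries, again without overlap. TLR6 had log2 fold changes of 0.73 ± 0.06, 0.93 ± 0.06, 0.72 ± 0.06 and 0.69 ± 0.06 at the 4 times (SE, edgeR adjusted p at most 4.05e-08), all under the 2-fold limit.

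Reads of TLR1 and TLR6 could not all be told apart. The expected counts of TLR1 were not whole in 20 of 21 libraries, while the sum with TLR6 was whole in all 21 within 0.02 counts, so RSEM had divided shared reads between the pair. TLR1 took 7.20 to 10.6% of the summed counts of TLR1 and TLR6 in DMSO, 14.8 to 15.9% at 48 h and 4.56 to 5.95% in sgEPCR DMSO. With the pair summed into 1 entry, the log2 fold change was 0.98 at 24 h, 0.83 at 48 h and 0.75 at 72 h, below the 2-fold limit that TLR1 alone passed at these times. TLR6 holds most of the counts of the pair, so this sum mainly follows TLR6. The posterior SD that RSEM gave for TLR1 was 0.64 to 3.94 counts, with a median of 2.75% of the count.

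TLR2, the shared subunit of both lipopeptide receptors, was called against DMSO only at 72 h, after a smaller rise at 6 h. It had 94, 97 and 110 expected counts in DMSO, 213, 170 and 121 at 6 h and 135, 156 and 58 at 24 h. After 48 h the values were 165, 133 and 96, and after 72 h 247, 282 and 312. Because the depth of the libraries differs, TPM separates the groups more clearly: 0.97 to 1.03 in DMSO, 1.65 to 1.99 at 6 h and 0.85 to 1.09 at 24 h. The 48 h libraries had 1.14 to 1.53, and the 72 h libraries had 2.64 to 2.97. The libraries of 6, 48 and 72 h lay above all DMSO libraries, and those of 24 h overlapped them. TLR2 rose by 1.42 ± 0.11 on the log2 scale at 72 h (edgeR adjusted p = 2.57e-09). At 6 h it had risen by 0.73 ± 0.11 (edgeR adjusted p = 3.22e-05), under the 2-fold limit. The difference at 24 h was -0.01 ± 0.12, and neither of these was called. From 48 to 72 h TLR2 rose by 1.02 ± 0.11 (edgeR adjusted p = 4.44e-07), and this call was lost, at 0.93 and 1.00, without UM171 48 h replicate 1 or UM171 72 h replicate 2.

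TLR4, the lipopolysaccharide receptor, changed little. Its TPM were 45.2, 48.5 and 50.4 in DMSO, 43.7, 46.3 and 45.3 at 6 h and 41.0, 41.9 and 40.2 at 24 h. At 48 h they were 39.3, 41.5 and 39.0, and at 72 h 44.4, 43.8 and 47.3. Libraries of 24 and 48 h lay below all DMSO libraries, and those of 6 and 72 h overlapped them. TLR4 differed from DMSO by -0.28 ± 0.04, -0.29 ± 0.04, -0.30 ± 0.04 and -0.22 ± 0.04 on the log2 scale (SE, edgeR adjusted p at most 7.36e-05), far under 2-fold. The difference was smaller when libraries were scaled to their total counts, at -0.10 for 6 h and -0.14 for 72 h, and it was negative under every scaling tried. The share of TLR4 in the summed TPM of the 10 receptors went from 85.7 to 86.4% in DMSO libraries to 70.8 to 74.0% in the 12 UM171 libraries of unedited cells.

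**Figure D2:**
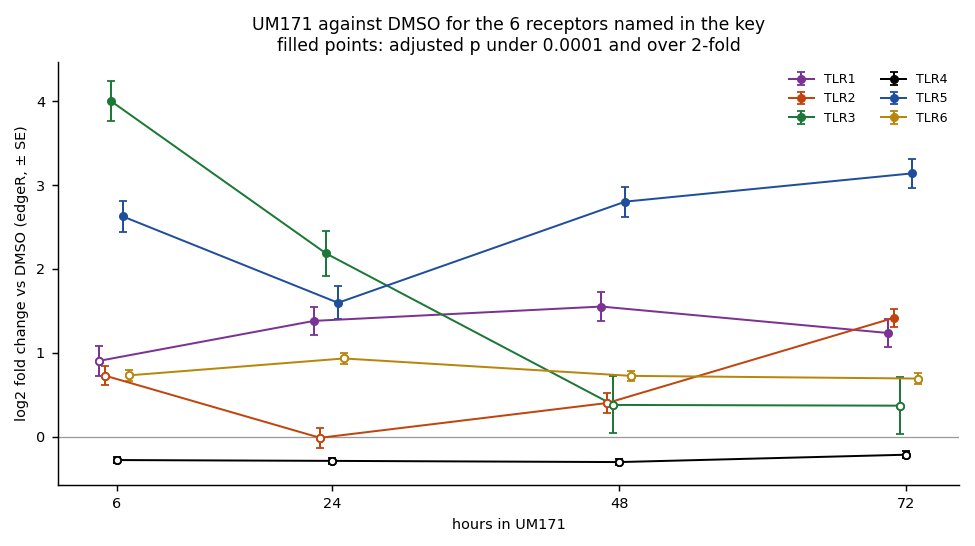
Log2 fold change from DMSO (vertical axis, edgeR estimate ± SE) against hours in UM171 (horizontal axis) for TLR1 to TLR6 in unedited cells, 3 libraries per time, with points spread slightly sideways and filled where called at an adjusted p under 0.0001 and over 2-fold. TLR3 drops from 4.0 at 6 h to 0.38 at 48 h, TLR5 dips to 1.60 at 24 h and reaches 3.14 at 72 h, and TLR4 stays just under 0.

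The remaining receptors were at low counts. TLR7, the endosomal sensor of single-stranded RNA, had 1, 0 and 0 expected counts in DMSO, 0, 3 and 4 at 6 h and 15, 15 and 6 at 24 h. After 48 h the values were 35, 21 and 22, and after 72 h 43, 30 and 34. Libraries of 24, 48 and 72 h lay above all of DMSO and 6 h, and those of 24 h did not overlap those of 48 or 72 h. TLR7 was called higher at 48 h (edgeR adjusted p = 1.07e-06) and 72 h (edgeR adjusted p = 2.18e-07), and missed the limit at 24 h (edgeR adjusted p = 0.000120). Over pooled counts, the ratio to DMSO was 78.7 at 48 h (95% interval 13.7 to 3149) and 108 at 72 h (19.0 to 4309), and these intervals are wide because DMSO held a single count. Even at 72 h TLR7 reached only 0.300 ± 0.069 TPM.

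TLR8, its neighbour on chromosome X with the same kind of ligand, had 0 to 2 counts in every library, at or below the smallest signal, and could not be tested. TLR10, a surface receptor without an agreed ligand, had 4 to 5 counts in DMSO, 7 to 13 at 6 h and 5 to 10 at 24 h. The 48 h libraries had 4 to 8, and the 72 h libraries had 7 to 12. It was not called at any time, and its pooled count ratio to DMSO was 2.87 at 6 h (95% interval 1.47 to 5.94) and 2.25 at 72 h (1.14 to 4.72).

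TLR9, the CpG DNA sensor, was the least certain of the 10. Its expected counts were 16.5, 8.62 and 23.8 in DMSO, 16.03, 7.34 and 17.3 at 6 h and 34.2, 40.3 and 16.3 at 24 h. At 48 h they were 7.62, 7.86 and 0, and at 72 h 14.97, 17.1 and 17.4. In TPM, libraries of 6 and 72 h overlapped those of DMSO (0.10 to 0.24), those of 48 h lay at or below the lowest of them (0 to 0.10), and those of 24 h lay above them all (0.26 to 0.30). TLR9 was not called between any of these groups. The posterior SD that RSEM gave for these counts had a median of 66.0% of the count, and reads of TLR9 cannot be fully told apart from those of the overlapping readthrough gene ENSG00000173366. Summed with that gene, TLR9 was at 1.196 ± 0.137 CPM in DMSO, 2.46 ± 0.30 at 6 h and 3.07 ± 0.18 at 24 h. It was 2.33 ± 0.62 at 48 h and then 1.74 ± 0.18 (SD, n = 3). In this sum, added after seeing the data, the log2 fold change of 1.31 at 24 h was called (edgeR adjusted p = 7.98e-06).

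The next question was whether cells carrying sgEPCR differed. In DMSO, their receptor transcripts summed to 17.9, 33.4 and 35.5 TPM, the lowest in the library rich in mitochondrial counts, against 55.9 ± 3.3 TPM in unedited DMSO cells (SD, n = 3). TLR6 had 1.26, 2.15 and 1.94 TPM in sgEPCR DMSO, below every other library. TLR1 had 0.15, 0.18 and 0.31 TPM, and TLR2 had 0.13, 0.35 and 0.45 TPM, each also below every other library. Of the 7 receptors that could be tested in the fit of 12 libraries, 1 was called against unedited DMSO: TLR6 fell by 1.19 on the log2 scale (edgeR adjusted p = 1.67e-05), where 1.41% of 15901 genes were called lower. TLR1 (-2.10 ± 0.29, edgeR adjusted p = 0.000281), TLR2 (-1.35 ± 0.19, edgeR adjusted p = 0.000353) and TLR4 (-0.53 ± 0.07, edgeR adjusted p = 0.000210) were not called. Without the 2 libraries rich in mitochondrial counts, TLR1 at -2.28, TLR2 at -1.23, TLR6 at -1.26 and TLR9, listed at 0 in sgEPCR DMSO, were called. The share of all genes called without these 2 libraries is not given here, so these calls stand without a background. The call of TLR6 was lost, at -1.13 to -1.17, when DMSO replicate 2 or 3, or sgEPCR DMSO replicate 2 or 3, was left out. The unedited DMSO libraries are labelled 72 h and the sgEPCR ones 24 h, so in this contrast genotype and time in culture cannot be told apart.

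With UM171 for 24 h, sgEPCR cells had 58.0, 40.8 and 59.0 TPM over the 10 receptors, again lowest in the library rich in mitochondrial counts, and TLR4 made up 72.4% ± 2.2 of it, near the 72.5% ± 0.5 of unedited cells at 24 h (SD, n = 3). Within sgEPCR cells 4 of 7 tested receptors were called higher, TLR1, TLR2, TLR3 and TLR6, where 6.99% of genes were. TLR1 went from 7.68, 11.4 and 11.5 expected counts in sgEPCR DMSO to 130, 112 and 150 in sgEPCR UM171, with a log2 fold change of 3.52 ± 0.28 (edgeR adjusted p = 2.34e-06). TLR2 went from 15, 33 and 55 to 153, 131 and 209 counts, at 2.15 ± 0.19 (edgeR adjusted p = 5.22e-06). The 2 groups did not overlap for either gene.

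TLR6 went from 121, 199 and 240 to 1068, 761 and 1193 expected counts, with a log2 fold change of 2.25 ± 0.11 (edgeR adjusted p = 6.28e-08). TLR3 went from 2, 1 and 2 to 21, 22 and 26 counts, a pooled ratio of 13.5 (95% interval 5.51 to 42.9), and was called (edgeR adjusted p = 3.22e-05). That call of TLR3 was lost without sgEPCR DMSO replicate 2 or 3, or without sgEPCR UM171 replicate 1 or 3. TLR5 went from 10, 10 and 14 to 51, 69 and 92 counts and narrowly missed the limit at 2.46 ± 0.34 (edgeR adjusted p = 0.000117). Again no treated library overlapped a DMSO library. Without the 2 libraries rich in mitochondrial counts, 5 receptors were called, TLR5 among them at 2.41, and the share of all genes called in that fit is not given here.

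TLR4 had 15.9, 30.6 and 32.3 TPM in sgEPCR DMSO and 43.0, 28.6 and 43.1 TPM in sgEPCR UM171, groups that overlapped in TPM. The lowest library of each was the one rich in mitochondrial counts. In CPM after edgeR's TMM scaling, TLR4 had 99.5, 96.1 and 102 in sgEPCR DMSO and 118, 135 and 119 in sgEPCR UM171, without overlap. The log2 difference of 0.33 ± 0.07 was not called (edgeR adjusted p = 0.00250), nor was that of 0.26 without the 2 libraries rich in mitochondrial counts. TLR7 had 0 counts in all 3 sgEPCR DMSO libraries and 11, 6 and 9 in sgEPCR UM171. Its mean CPM was at least 2.74-fold higher when each 0 is set to the smallest signal of 3 counts. TLR9 was listed at 0 in all sgEPCR DMSO libraries and at 6.62, 12.03 and 15.6 in sgEPCR UM171, and with the readthrough gene the sum was 2.19 to 9.79 against 19.95 to 40.2 counts. TLR10 had 0, 1 and 1 against 5, 5 and 7 counts, a pooled ratio of 8.31 (95% interval 1.97 to 74.1). TLR8 stayed at 0 or 1 count in these 6 libraries.

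The genotypes were then compared after 24 h of UM171. None of the 7 tested receptors was called between sgEPCR UM171 and unedited UM171 24 h, where 4.46% of genes were called in either direction. DESeq2 also called 0, as did edgeR without the 2 libraries rich in mitochondrial counts. At an unadjusted p under 0.05 by edgeR, 3 of the 7 differed, where 8099 of all 15901 tested genes did. These were TLR2 (0.83 ± 0.18 on the log2 scale, higher in sgEPCR cells), TLR5 and TLR9. TLR1 differed by 0.04 on the log2 scale with a 95% interval of -0.40 to 0.47, and TLR6 by 0.12 with an interval of -0.07 to 0.32. The difference between the responses themselves was tested with an interaction term: 2 of 7 receptors were called, both with a larger response in sgEPCR cells, where 3.60% of genes were called in that direction. These were TLR2, whose log2 response was larger by 2.17 ± 0.26 (edgeR adjusted p = 7.22e-05), and TLR6, larger by 1.31 ± 0.14 (edgeR adjusted p = 4.13e-05). TLR1, at 2.14 ± 0.37, was not called (edgeR adjusted p = 0.000763). Without the 2 libraries rich in mitochondrial counts, TLR1 (2.14), TLR2 (1.92) and TLR6 (1.30) were all called. That fit also called a larger share of all genes, given with the pathway genes below. With all 12 libraries 7.77% were called in either direction. With TLR1 and TLR6 summed, the pair was called at 1.36. When 1 of the 12 libraries was left out, the value for TLR2 stayed between 2.03 and 2.37 but the call held only without sgEPCR UM171 replicate 2, and that for TLR6 stayed between 1.23 and 1.37 with the call held only without sgEPCR DMSO replicate 1, sgEPCR UM171 replicate 2 or sgEPCR UM171 replicate 3. The interaction uses the same unedited DMSO and 24 h libraries as the comparisons above, and includes the difference in time between the DMSO groups.

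**Figure D3:**
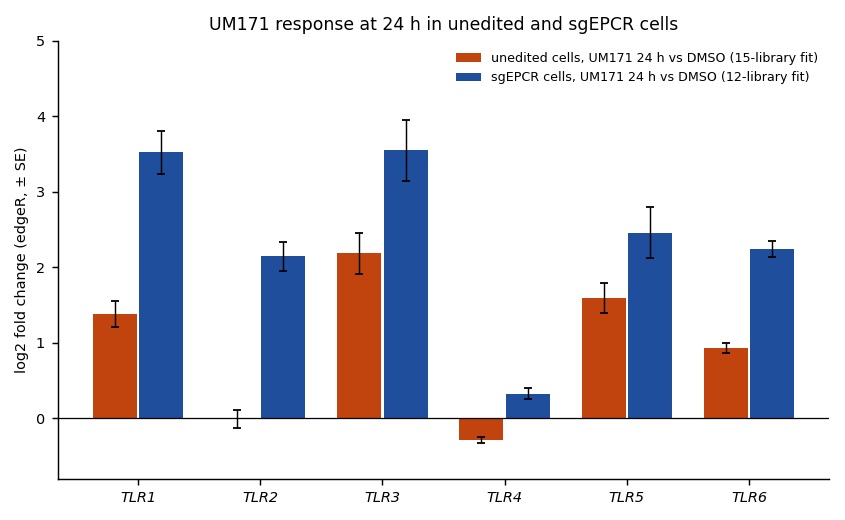
Log2 fold change after 24 h of UM171 (vertical axis, edgeR estimate ± SE) for TLR1 to TLR6 (horizontal axis) in unedited cells (red, fit of 15 libraries) and sgEPCR cells (blue, fit of 12 libraries), 3 libraries per group. The blue bar is higher for each gene, and the difference passed the interaction test for TLR2 and TLR6, while for TLR2 the red bar is at -0.01.

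The pathway around the receptors was read from a list of 56 genes, of which 53 were tested. In unedited cells 2 of them were called higher at 6 h. The count was 7 at 24 h, then 11 and 12 at 48 and 72 h, to be read against the shares of all genes given above. Called lower were 3 at 24 h, 4 at 48 h and 1 at 72 h, where 4.70%, 4.67% and 5.80% of all tested genes were called lower. The median log2 fold change of the list at 72 h was -0.04, beside 0.02 over all tested genes. That median covers changes in both directions. By role, medians at 72 h ran from -0.54 for transcription factors to 1.85 for co-receptors. Genes that were not called also moved. Between DMSO and 72 h, IRAK1 went from 136 ± 2.8 to 69.0 ± 0.9 TPM and TNIP1 from 49.1 ± 5.7 to 95.3 ± 5.8 TPM (SD, n = 3). Both are named here after their values were seen.

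Among co-receptors, LY96 (MD-2), the protein through which TLR4 binds lipopolysaccharide, showed the contrast with TLR4 itself. LY96 had 1.15, 0.68 and 0.69 TPM in DMSO, 4.36, 3.77 and 4.99 at 6 h and 20.4, 21.9 and 23.6 at 24 h. The 48 h libraries had 36.3, 34.1 and 23.8, and the 72 h libraries had 54.6, 57.6 and 65.2. Every later group lay above DMSO, and those of 72 h lay above all others. LY96 rose by 2.31 ± 0.26, 4.75 ± 0.19, 5.30 ± 0.18 and 6.10 ± 0.17 on the log2 scale at 6, 24, 48 and 72 h (SE, edgeR adjusted p at most 7.28e-07). The ratio of LY96 to TLR4, both in TPM, went from 0.0177 ± 0.0067 in DMSO to 1.31 ± 0.07 at 72 h (SD, n = 3).

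In sgEPCR cells LY96 had 0.07, 0.22 and 0.20 TPM in DMSO and 20.8, 14.6 and 23.5 TPM in UM171, and its ratio to TLR4 was 0.513 ± 0.032 after 24 h, against 0.535 ± 0.047 in unedited cells. The pooled count ratio of LY96 between these sgEPCR groups was 122 (95% interval 55.8 to 333), and LY96 was called (edgeR adjusted p = 6.75e-08), also without the 2 libraries rich in mitochondrial counts (edgeR adjusted p = 1.23e-10). CD14, which delivers lipopolysaccharide to the TLR4 complex and is named here after its values were seen, had 0 to 2 counts in DMSO libraries and 3 to 17 at 72 h, and did not pass the filter for testing. CD36, a scavenger receptor that works with TLR2 and TLR6, rose by 2.89 ± 0.11 on the log2 scale at 72 h (edgeR adjusted p = 1.51e-13), from 4.23 ± 0.41 to 27.6 ± 3.2 TPM.

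**Figure D4:**
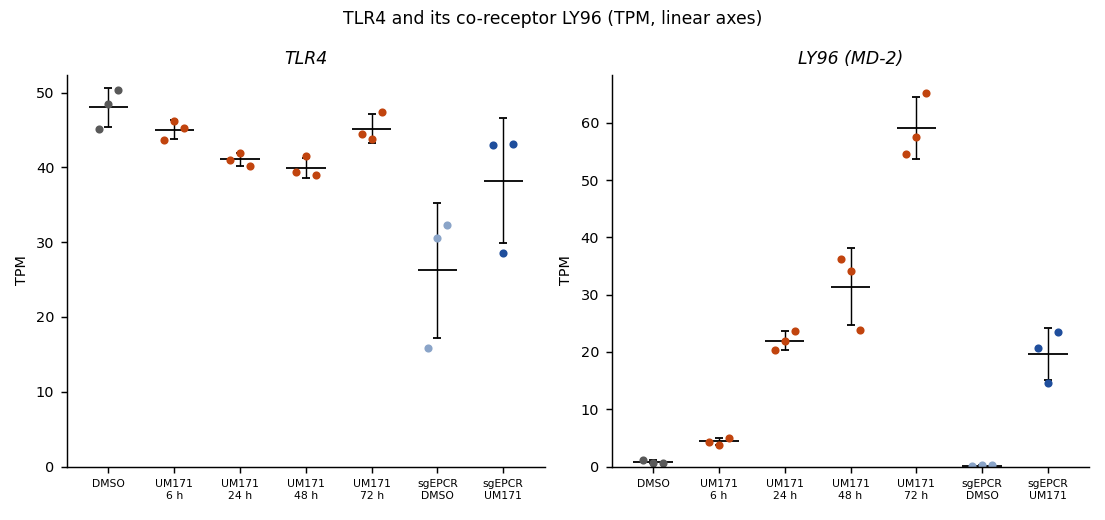
TPM (vertical axes, linear) of TLR4 (left) and LY96 (right) in the 7 groups (horizontal axes), with 1 point per library, a bar for the mean and whiskers for the SD (n = 3). TLR4 stays within 39.0 to 50.4 TPM in unedited cells, while LY96 goes from 0.68 to 1.15 TPM in DMSO to 54.6 to 65.2 TPM at 72 h.

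Some of the other roles also held called genes at 72 h. Of the 4 tested proteases that process endosomal receptors, 3 were called higher at 72 h, when 15% of all tested genes were: CTSL by 2.58 ± 0.06, CTSB by 1.12 ± 0.07 and CTSS by 1.09 ± 0.06 on the log2 scale (SE). None of the 6 chaperone and trafficking genes was called at 72 h. Of the 6 adaptors, TICAM2, which links TLR4 to TICAM1, rose by 1.48 ± 0.19, and SARM1, a TIR-domain protein known as a negative regulator and an NAD-degrading enzyme, fell by 1.69. Of the 20 kinases and ligases 4 were called higher, a share near the 15% of all genes, among them the Pellino ubiquitin ligases PELI2 (2.16 ± 0.06) and PELI3 (1.39 ± 0.13) and the kinase IRAK2 (1.04 ± 0.17). None of the 5 transcription factors was called at 72 h. Of the 8 negative regulators, TNFAIP3 (A20) rose by 1.02 ± 0.09, and IL1RL1, a receptor for interleukin 33 that can restrain this pathway, went from 3 counts in all DMSO libraries to 1076 at 72 h, a pooled ratio of 362 (95% interval 124 to 1760). All 12 named genes, LY96 and CD36 included, had an edgeR adjusted p of at most 2.77e-05. The call of IRAK2 was lost, at 0.96 to 1.04, without DMSO replicate 1 or 3 or UM171 72 h replicate 2 or 3, and that of TNFAIP3, at 0.97 each, without DMSO replicate 1 or UM171 72 h replicate 3.

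**Figure D5:**
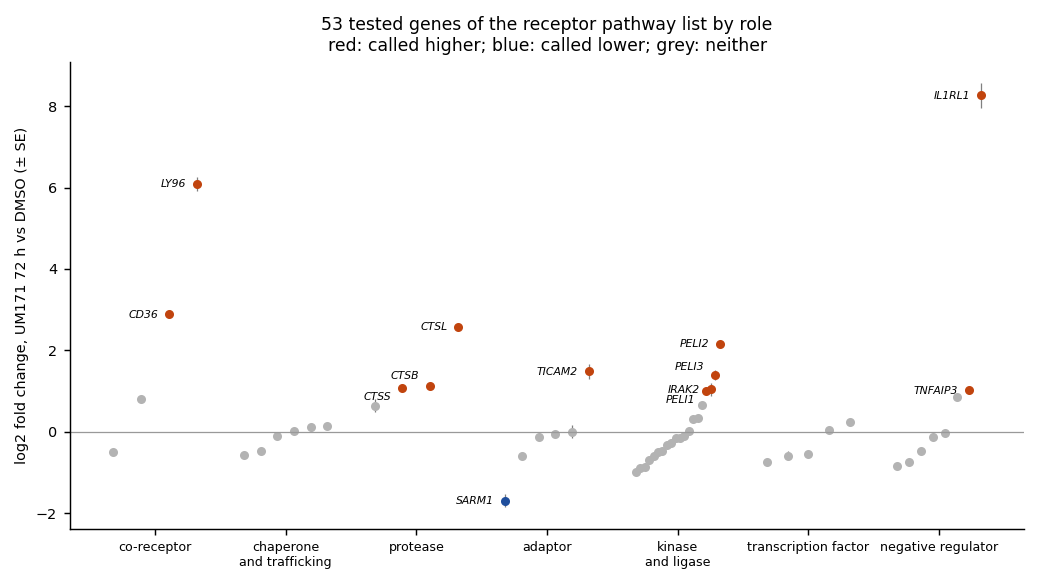
Log2 fold change at 72 h of UM171 against DMSO (vertical axis, edgeR estimate ± SE) for the 53 tested genes of the receptor pathway list, grouped by role (horizontal axis), red where called higher, blue where called lower and grey otherwise. LY96 at 6.10 and IL1RL1, whose estimate rests on 3 DMSO counts, stand above the rest. Most genes were not called and lie on both sides of 0.

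In sgEPCR cells 11 of the 53 tested pathway genes were called higher after UM171 and 1 lower, where 6.99% of all tested genes were called higher and 3.33% lower. In the interaction 5 were called with a larger response in sgEPCR cells and 1 with a smaller one, where 3.60% and 4.17% of genes were called in these directions. The 5 were TNFAIP3 (2.25 ± 0.16), the deubiquitinase CYLD (1.30 ± 0.11), the kinase RIPK1 (1.13 ± 0.10), the protease CTSK (1.88 ± 0.23) and SARM1 (6.06 ± 0.56), and the 1 was PELI2 (-1.56 ± 0.17), all on the log2 scale with SE and an edgeR adjusted p of at most 7.29e-05. When 1 of the 12 libraries was left out, the call of CTSK was lost 11 times, of PELI2 8 times, of SARM1 2 times and of RIPK1 1 time, and those of TNFAIP3 and CYLD held in all 12. Without the 2 libraries rich in mitochondrial counts, 17 pathway genes were called in the interaction, where 19.1% of all genes then were. The 6 genes named in this paragraph all stayed called. In sgEPCR cells 13 pathway genes were called without these 2 libraries, and the share of all genes called there is not given here. SARM1 had 0 to 11.2 expected counts in sgEPCR DMSO libraries, so its value rests on few reads. PELI2 averaged 2.63 ± 1.0 TPM in unedited DMSO, 5.07 ± 0.55 in unedited UM171 24 h, 3.81 ± 0.28 in sgEPCR DMSO and 3.04 ± 0.76 in sgEPCR UM171 (SD, n = 3).

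The genes whose pattern was most like that of a receptor were sought over all 21 libraries among 13303 genes, by Pearson correlation of log2 CPM, for the 4 receptors averaging at least 100 counts. These are descriptions without a test, since libraries of a group share their treatment. For TLR1 the closest were TLR6 (0.98), with which it shares reads, ENSG00000276900 (0.97) and GPR65 (0.96). For TLR6 they were TLR1 (0.98), KL (0.98) and CTTNBP2 (0.95). For TLR2 they were VWA5A (0.96), LRRC25 (0.96) and TNFRSF10D (0.95). For TLR4, whose range between groups is small, they were FTH1 (0.90), CREG1 (0.87) and RGS18 (0.84).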

How the data were processed

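RNA sequencing was analysed from 21 OCI-AML5 libraries, grouped by their labels into 7 groups of 3. Per the labels, RNA was extracted with Trizol and Qiagen columns and made into stranded poly(A) libraries (KAPA). The submitters' processing notes name CASAVA 1.8.2, Trimmomatic 0.35, STAR 2.5.1b and RSEM 1.2.28 on GRCh38, and the study's methods name kallisto and sleuth for its own statistics. The authors deposited, for each library, RSEM's expected counts per gene, which are not normalized and in which reads shared between genes are divided. The deposited TPM values are scaled by transcript length and to one total per library. Other deposited columns, the gene's mean transcript length and the posterior SD of its count, were used only as descriptions. Counts of 45 pseudoautosomal entries listed for chromosome Y were added to those for X, and 41805 of the 58174 identifiers had a symbol.

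Expected counts were rounded and fitted with edgeR 4.0.16 in R 4.3.3 (filterByExpr, TMM, glmQLFit and glmQLFTest, Benjamini-Hochberg over every gene tested). The 15 unedited libraries were fitted together for the time course (16575 genes). For the sgEPCR contrasts, the 6 sgEPCR libraries were fitted with unedited DMSO and UM171 24 h (12 libraries, 15901 genes). Calls used the study's limits, an adjusted p under 0.0001 and over 2-fold. Errors are SE for fold changes (the log2 fold change over the root of F) and SD between libraries for levels, and intervals of pooled count ratios are exact binomial ones at 95% for counting error only. Symbols and coordinates came from GENCODE v44. The receptors, the pathway list and the markers were chosen with earlier results of these data known. Pathway genes were named, up to 3 in each role, by the largest change among those called at 72 h or in the interaction. Alternatives were limma 3.58.1 on log2 TPM with 1 or 0.1 added, DESeq2 1.42.0, scaling by total counts or by the upper quartile, filters on low counts, all 21 libraries in 1 fit, a replicate block, omission of libraries or of mitochondrial genes, a looser call, and, chosen after seeing the data, sums of overlapping genes. The fits were tested on simulated data. The replicate numbers were not treated as pairs: deviations of same-numbered libraries correlated between -0.083 and 0.078 in the time course and between -0.571 and 0.414 for the sgEPCR groups.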

Additional observations from a re-analysis of the deposited data

Results flagged for a closer look

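By edgeR's interaction term, 2 Toll-like receptors were called with a larger response to 24 h of UM171 in sgEPCR than in unedited cells. In that direction 3.60% of 15901 tested genes were called. When 1 of the 12 libraries was left out, the call was lost 11 times for TLR2 and 9 times for TLR6. The unedited DMSO libraries are labelled 72 h and those of sgEPCR 24 h, so time in culture enters this term. TLR2 was flagged because its log2 response was 2.17 larger in sgEPCR cells, and TLR6 because its response was 1.31 larger. In both cases the sgEPCR DMSO libraries were the lowest of the series, 0.13 to 0.45 TPM for TLR2 and 1.26 to 2.15 TPM for TLR6, while the sgEPCR UM171 libraries were at 1.15 to 1.83 and 7.27 to 9.25 TPM. Those of unedited UM171 24 h were at 0.85 to 1.09 TPM for TLR2, below all of sgEPCR UM171, and at 9.03 to 10.1 TPM for TLR6, above 2 of its 3 libraries. The sgEPCR UM171 library at 7.27 TPM was the one rich in mitochondrial counts. In CPM after edgeR's TMM scaling, TLR6 overlapped, at 27.4 to 33.2 in sgEPCR UM171 and 27.0 to 28.8 in unedited UM171 24 h. Groups of 3 libraries are too small for a search for single outlying libraries.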

How the results depend on the processing

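Of 62 reported fold changes of single receptors, 1107 of 1111 values recomputed under an alternative kept their direction. The 4 that turned were TLR3 in the interaction (-0.12, limma on log2(TPM + 1)), TLR5 in the interaction (-0.076, limma on log2(TPM + 0.1)), and TLR9 at 48 h against DMSO (0.95) and from 48 to 72 h (-0.51) when summed with its readthrough gene. None of these was called, and the cause was not tested.

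Counts of called Toll-like receptors moved as follows, in the order 6, 24, 48 and 72 h against DMSO, 24 against 6 h, 48 against 24 h, 72 against 48 h, sgEPCR UM171 against sgEPCR DMSO, sgEPCR DMSO against DMSO, both UM171 groups, and the interaction. An adjusted p under 0.05 with no minimum fold gave 7, 6, 7, 7, 6, 6, 3, 7, 5, 1 and 5. Many genes pass a limit of this kind. At an unadjusted p under 0.05 by edgeR, 10823, 11911, 12268, 12763, 11527, 8576 and 10221 of 16575 genes passed in the time course. In the comparisons with sgEPCR cells 9090, 6864, 8099 and 8320 of 15901 did, in the same order. Limma on log2(TPM + 1) gave 0, 1 and 1 at 24, 48 and 72 h, 0 in all 3 successive steps, 2 for sgEPCR UM171, 0 for sgEPCR DMSO and 0 in the interaction, and on log2(TPM + 0.1) 0 at 24 h, 0 in the first 2 steps, 2 for sgEPCR UM171, 0 for sgEPCR DMSO and 0 in the interaction. At least 10 counts in every library, which left fewer genes, gave 1 at 6 h and 1 in each of the first 2 steps, and no filter gave 1 in the first step. All 21 libraries in 1 fit gave 1 in the first step, 0 in the second and 3 for sgEPCR DMSO. For sgEPCR DMSO DESeq2 gave 4, as did leaving out the 2 libraries rich in mitochondrial counts. Total count scaling gave 0 in the interaction. The share of all genes called can also change with the setting and is not given here for each.

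Leaving out 1 library gave ranges of 2 to 2, 3 to 3, 3 to 3 and 4 to 4 against DMSO, 1 to 2, 1 to 2 and 0 to 1 in the steps, 3 to 4 for sgEPCR UM171, 0 to 1 for sgEPCR DMSO, 0 to 0 between UM171 groups and 0 to 2 in the interaction. With the replicate number as a block, sgEPCR UM171 and the interaction each gave 0, and genotype contrasts could not be fitted with it. Whether a shared number marks a shared clone is not known here.

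Depth limits TLR7, TLR8, TLR9 and TLR10, which had few counts, and TPM of TLR3 and TLR5 vary with the transcript length assigned in each library. The 2 sgEPCR libraries rich in mitochondrial counts lower all other TPM in them.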
